A study of Mus musculus with 12 samples.

Results

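The 9 CXC chemokine genes Cxcl1, Cxcl2, Cxcl9, Cxcl10, Cxcl11, Cxcl12, Cxcl13, Cxcl14 and Cxcl16 were followed in liver macrophage preparations of mice by RNA sequencing. They are 9 of the 25700 genes in the count table, chosen by name, and all 9 passed the filter on low counts that left 13844 genes to test. The 12 libraries form 4 groups of 3: sph/sph mice given anti-CD40, wild-type (WT) mice given anti-CD40, sph/sph mice given saline, and WT mice given saline. Mice labelled Spta sph/sph are homozygous for the sph allele of the red cell spectrin gene and have fragile red cells that macrophages take up, and the controls are littermates labelled Spta wt/wt, although the table's columns call them heterozygous. The agonistic antibody to CD40, an activating receptor found on antigen-presenting cells, was injected intraperitoneally at 20 mg/kg, and cells were taken after 30 h. All mice are labelled as males of 8 to 10 weeks, with a library per animal as the design text counts them. The series' title asks whether red cell uptake shifts liver macrophages towards an anti-inflammatory state. Cells were pulled from digested, non-parenchymal liver suspensions with beads against F4/80, a macrophage surface protein, so other liver cells remain in the preparation.

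CXC chemokines are small secreted proteins that bind G protein-coupled receptors on leukocytes and steer their migration. CXCL1 and CXCL2 act on CXCR2 and draw neutrophils. CXCL9, CXCL10 and CXCL11 are induced by interferon and act on CXCR3 of activated T cells and NK cells. CXCL13 acts on CXCR5 of B cells, CXCL12 on CXCR4 of many leukocytes and on the scavenging receptor ACKR3, and CXCL16, made as a membrane protein and shed by ADAM10, on CXCR6. CXCL14 is a constitutive tissue chemokine whose receptor is not settled.

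Total counts ran from 14991250 to 18984067 per library. The F4/80 gene Adgre1 was detected in every library, and the summed level of 7 Kupffer cell markers, all 7 detected in each group, was 12672 to 18849 CPM (counts per library scaled to an equal total, with TMM factors) in sph/sph anti-CD40, 498 to 924 CPM in WT anti-CD40, 26239 to 38218 CPM in sph/sph saline and 32848 to 37219 CPM in WT saline. The tissue-resident macrophage signature was thus low in WT anti-CD40 libraries. In bulk RNA, fewer cells of a type and less RNA per cell cannot be told apart. In 4 libraries, the A library of each group, 4 Y-linked genes had 0 counts, against 2436 to 4055 counts in the other 8 libraries, which goes against the male label. The library sph/sph anti-CD40 C stood apart: on the second principal component, which held 20.3% of the variance, it lay at -26.5, whereas A and B of its group lay at 102.3 and 75.8. Its 4 B cell markers summed to 1283 CPM, against 75.3 CPM in A and 25.8 CPM in B. Of the 9 chemokine genes, 4 were within the sph/sph saline range in library C, 4 below it and 1, Cxcl1, above it. Results for the 9 genes are also given without it where that changes a call or moves a fold by over 1.5 times. Those fits leave only A and B in its group. Library C stood apart in these same genes too, so calls made without it are a description and no independent support.

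The chemokine genes took 0.172%, 0.154% and 0.0197% of all counts in sph/sph anti-CD40 libraries A, B and C. Their shares were 0.589%, 0.593% and 0.943% in WT anti-CD40. In sph/sph saline they were 0.0294%, 0.0212% and 0.0141%, and in WT saline 0.0565%, 0.0700% and 0.0666%. All WT anti-CD40 libraries lay above the others, and library C of sph/sph anti-CD40 lay among the sph/sph saline libraries. To compare levels between genes, CPM were divided by exon length in kilobases (RPKM).

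In sph/sph anti-CD40 the order by mean RPKM was led by Cxcl13 with 170.2 ± 147, Cxcl9 with 164 ± 139, Cxcl10 with 107 ± 96.1 and Cxcl16 with 83.5 ± 45.9 RPKM (SD, n = 3 in each group). The ranges of these 4 genes overlapped from each one to the next, and Cxcl14 stood last with 0.32 ± 0.072 RPKM, below the range of Cxcl1. In WT anti-CD40 Cxcl9 stood first with 1557 ± 463 RPKM, above the range of Cxcl10 with 448 ± 184 RPKM. Cxcl10 overlapped Cxcl16 with 207 ± 108 RPKM, and Cxcl11 followed apart from its neighbours with 85.9 ± 23.2 RPKM. The CXCR3 ligands Cxcl9 and Cxcl10 thus held the top of the WT anti-CD40 order, and Cxcl1 was last with 1.59 ± 0.308 RPKM.

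In sph/sph saline Cxcl16 led alone with 36.9 ± 3.06 RPKM. Next came Cxcl12 with 8.54 ± 6.33, Cxcl9 with 8.43 ± 7.01, Cxcl10 with 4.36 ± 2.06 and Cxcl13 with 3.11 ± 0.124 RPKM, each overlapping the next. In WT saline Cxcl13 led with 113 ± 56.0 RPKM and overlapped Cxcl16 with 93.6 ± 3.25 RPKM. Below a gap came Cxcl12 with 18.4 ± 13.9, Cxcl14 with 13.9 ± 4.00 and Cxcl9 with 9.82 ± 2.80 RPKM, again overlapping each other. The saline groups thus differed in which gene led. By library, Cxcl16 made up 47.5% to 72.5% of the summed RPKM in sph/sph saline, whereas in WT saline Cxcl13 made up 50.1% in A and 52.2% in C and Cxcl16 44.4% in B.

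**Figure D1:**
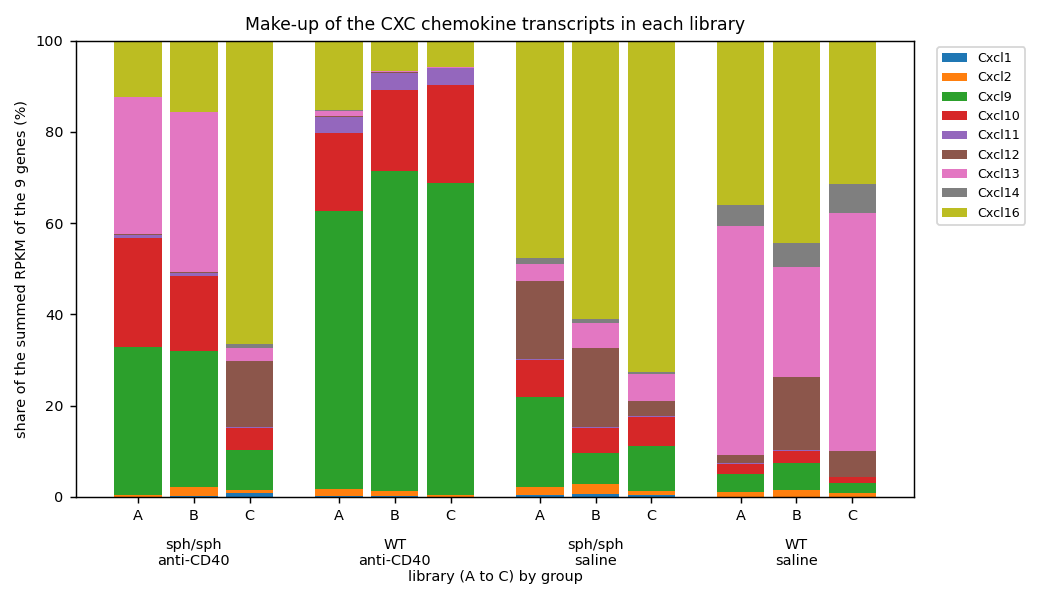
Share of the summed RPKM of the 9 genes (percent, vertical axis) in each of the 12 libraries, with sph/sph left of WT within each treatment and 1 colour per gene. Cxcl9 is the tallest segment in all 3 WT anti-CD40 libraries (61.0%, 70.1% and 68.4%), while sph/sph anti-CD40 C is led by Cxcl16 (66.5%) as the sph/sph saline libraries are.

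Anti-CD40 changed most of these genes in WT mice. With edgeR's quasi-likelihood test and Benjamini-Hochberg adjustment over all genes, 5 of the 9 rose (Cxcl1, Cxcl2, Cxcl9, Cxcl10, Cxcl11) and 1 fell (Cxcl14) at an adjusted p under 0.05, against 39.2% of all genes called, 19.4% as higher and 19.7% as lower. The median log2 fold of the 9 was 3.12, and that of all genes tested was 0.05. DESeq2 on the same libraries called all 9, with Cxcl16 higher and Cxcl12 and Cxcl13 lower, against 45.7% of genes, and so did edgeR when only the WT groups were fitted, while limma-voom called 6. WT anti-CD40 and WT saline libraries did not overlap for any of the 9 genes, which held for 57.3% of all genes. Without sph/sph anti-CD40 C, which enters the shared estimate of the spread, Cxcl16 was called higher as well and Cxcl12 and Cxcl13 lower, with 46.8% of genes called.

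In sph/sph mice the test called 0 of the 9 genes for anti-CD40, against 0.78% of all genes. Of the 9, 6 had an unadjusted p under 0.05, as had 2901 of the 13844 genes tested. DESeq2 called 4 (Cxcl9, Cxcl10, Cxcl11 and Cxcl13), against 9.97% of genes, and limma-voom called 0. Only Cxcl1 had groups that did not overlap, which held for 21.7% of all genes. Without library C, 6 of the 9 rose (Cxcl2, Cxcl9, Cxcl10, Cxcl11, Cxcl13 and Cxcl16), with 16.9% of genes called, 9.83% as higher. Leaving out any other single library called 0 of the 9. The median log2 fold of the 9 was 2.61 with library C, against 0.04 over all genes tested, and 3.19 without it, against -0.03.

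Between genotypes under anti-CD40, 3 of the 9 were lower in sph/sph (Cxcl1, Cxcl11 and Cxcl14) and 0 higher, against 17.7% of all genes called and 6.19% called lower. Libraries did not overlap for 5 of the 9, all below WT, namely Cxcl1, Cxcl9, Cxcl10, Cxcl11 and Cxcl14. Such separation was found for 28.3% of all genes. DESeq2 called 6 of the 9, against 24.5% of genes, limma-voom called 2, and edgeR called 0 when only the anti-CD40 groups were fitted. Without library C, Cxcl9 and Cxcl10 were called lower too and Cxcl13 higher, with 24.2% of genes called. The median log2 fold of the 9 was -1.78 with library C and -1.45 without it, against 0.08 and 0.04 over all genes tested.

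Between genotypes under saline, 1 of the 9 was called, Cxcl14, which was lower in sph/sph, against 2.04% of all genes called and 0.433% called lower. Of the 9, 4 had an unadjusted p under 0.05, as had 1817 of the 13844 genes tested. Libraries did not overlap for 5 genes, Cxcl1 above WT and Cxcl2, Cxcl13, Cxcl14 and Cxcl16 below it, as for 31% of all genes. Without sph/sph anti-CD40 C, Cxcl13 and Cxcl16 were called lower as well, with 3.83% of genes called. The median log2 fold of the 9 was -1.10, against 0.01 over all genes tested.

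The difference between the responses (that of sph/sph minus that of WT, the interaction) was called for 2 of the 9, negative for Cxcl1 and positive for Cxcl13, against 4.3% of all genes. Without library C that of Cxcl11 was called too, with 6.7% of genes called. The comparisons share groups of libraries, so their values are set side by side and are not independent of each other.

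**Figure D2:**
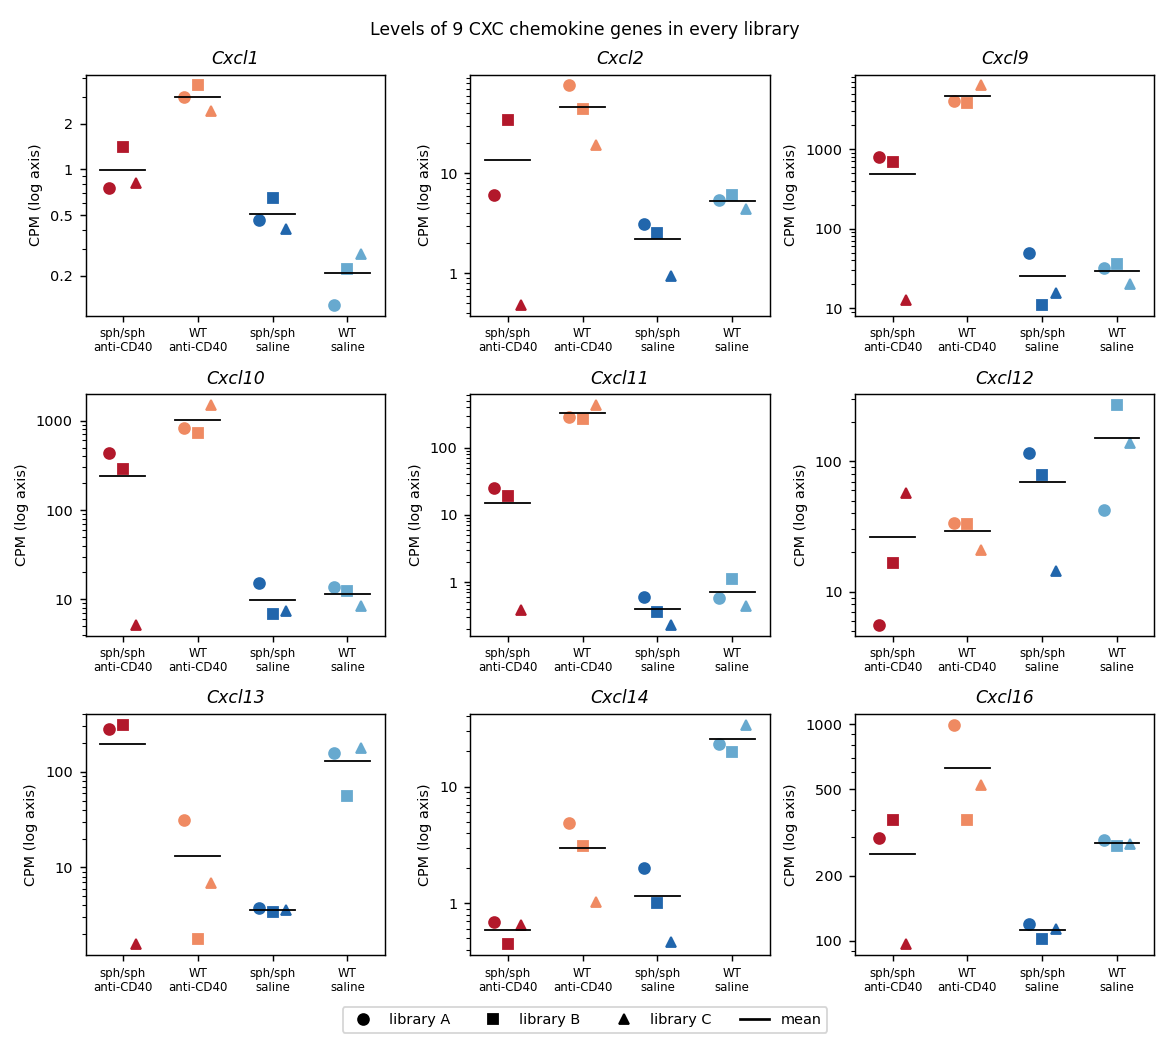
CPM of each gene in the 12 libraries (log axis), with sph/sph left of WT in each treatment; circles, squares and triangles are libraries A, B and C and bars are group means (n = 3). WT anti-CD40 libraries are the highest for Cxcl9, Cxcl10 and Cxcl11, and the triangle of sph/sph anti-CD40 lies within or below the range of the sph/sph saline libraries for those genes and for Cxcl13.

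**Figure D3:**
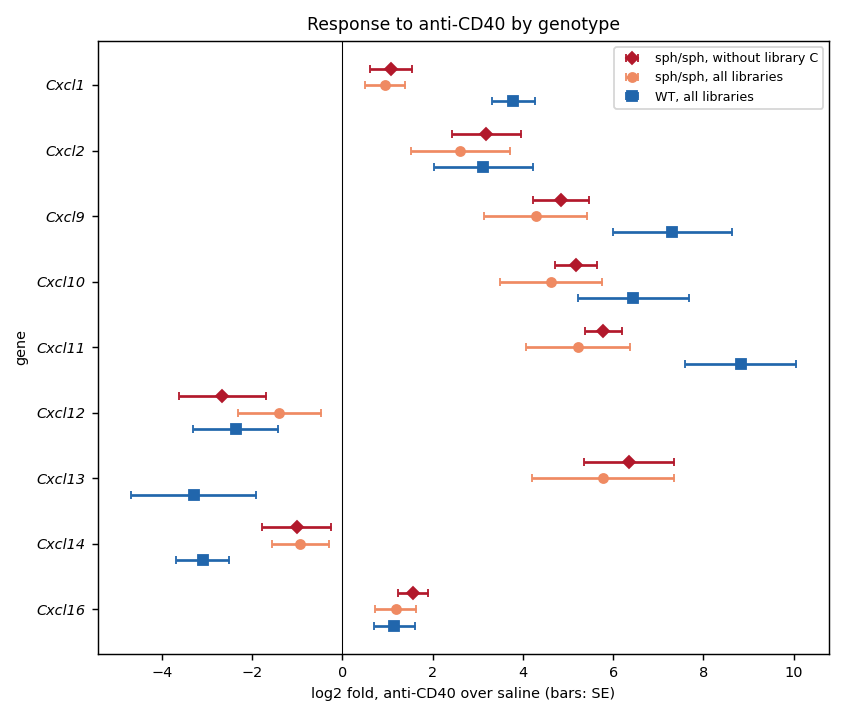
Log2 fold of anti-CD40 over saline for each gene (horizontal axis, bars are SE), with sph/sph without library C (diamonds), sph/sph with all libraries (circles) and WT (squares) from top to bottom for each gene. Cxcl13 lies right of 0 in sph/sph (5.77) and left of 0 in WT (-3.30), and Cxcl1 lies nearer 0 in sph/sph (0.95) than in WT (3.78).

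The promoters of the neutrophil attractants and of Cxcl9 and Cxcl10 are shown because anti-CD40 raised these genes in WT and because each holds a letter match to a kappaB element, the DNA site of NF-kappaB, a mediator of CD40 signalling, or to an interferon-stimulated response element. RefSeq promoters of 300 bases (250 before the start and 50 after it, build GRCm38.p6) were found for 7 of the 9 genes, and the 250 bases before the start are printed 5′ to 3′ on the strand of the gene. Capitals mark GGANTTNCC for kappaB, held by 3.95% of 32851 RefSeq promoters, and GAAANNGAA for the interferon element, held by 8.56%. Both were searched on both strands, and no match overlapped another.
Cxcl1 at chr5:90890995-90891244, plus strand: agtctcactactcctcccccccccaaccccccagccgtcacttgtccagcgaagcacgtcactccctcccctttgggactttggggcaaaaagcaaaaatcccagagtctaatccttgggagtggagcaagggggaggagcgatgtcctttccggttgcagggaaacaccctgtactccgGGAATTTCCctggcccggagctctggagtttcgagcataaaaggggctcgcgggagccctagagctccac
Cxcl2 at chr5:90903649-90903898, plus strand: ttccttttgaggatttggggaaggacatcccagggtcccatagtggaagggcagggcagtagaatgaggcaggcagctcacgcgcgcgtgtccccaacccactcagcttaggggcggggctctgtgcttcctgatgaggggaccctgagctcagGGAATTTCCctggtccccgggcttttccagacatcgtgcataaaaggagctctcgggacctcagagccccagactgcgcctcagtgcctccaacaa
Cxcl9 at chr5:92328080-92328329, minus strand: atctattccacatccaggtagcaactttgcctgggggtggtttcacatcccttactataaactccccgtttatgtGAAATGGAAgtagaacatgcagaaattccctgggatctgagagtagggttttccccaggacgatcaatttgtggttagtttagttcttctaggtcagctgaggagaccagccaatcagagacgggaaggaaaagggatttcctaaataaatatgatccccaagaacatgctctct
Cxcl10 at chr5:92348890-92349139, minus strand: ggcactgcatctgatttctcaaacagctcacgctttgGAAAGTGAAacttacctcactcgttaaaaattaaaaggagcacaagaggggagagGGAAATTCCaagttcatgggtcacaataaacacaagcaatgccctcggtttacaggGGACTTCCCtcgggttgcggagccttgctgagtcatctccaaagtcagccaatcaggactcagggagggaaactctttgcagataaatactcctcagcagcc
The kappaB match lay 70 to 62 bases before the start in Cxcl1 and 96 to 88 in Cxcl2, with the same letters, GGAATTTCC, in both. Cxcl10 held 2 such matches, GGAAATTCC at 158 to 150 and GGACTTCCC at 102 to 94 bases before the start, and an interferon element, GAAAGTGAA, at 213 to 205. In Cxcl9 the interferon element, GAAATGGAA, lay 175 to 167 bases before the start, and GGANTTNCC had no match. Other spellings of the kappaB element were not searched in any promoter, so its absence from Cxcl9 is not shown. The Cxcl14 promoter held an interferon element at 172 to 164 bases and a gamma-activated site, TTCNNNGAA (8.3% of promoters), at 191 to 183 bases before its start. Those of Cxcl12 and Cxcl13 held none of the 3 motifs. A match is a description of letters and was not tested as a binding site.

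Cxcl1 and Cxcl2, the neutrophil attractants, rose with anti-CD40 in WT. Cxcl1 (ENSMUSG00000029380; chromosome 5, 90891241 to 90893115, plus strand, GRCm38) was at 0.76, 1.40 and 0.81 CPM in the sph/sph anti-CD40 libraries (in the order A to C, here and from here on), and at 2.99, 3.57 and 2.41 CPM in WT anti-CD40. It was at 0.47, 0.65 and 0.41 CPM in sph/sph saline and at 0.13, 0.22 and 0.28 CPM in WT saline. The groups were all apart from each other: WT anti-CD40 highest, then sph/sph anti-CD40, then sph/sph saline, then WT saline. These are low levels, 2 to 68 counts a library, and the highest group was the one with the fewest Kupffer cell transcripts.

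The log2 fold of anti-CD40 over saline for Cxcl1 was 3.78 ± 0.48 in WT (SE; edgeR adjusted p = 0.00027). In sph/sph it was 0.95 ± 0.44 (edgeR adjusted p = 0.244, and 0.139 without library C), higher in all 3 libraries than in any sph/sph saline library. The responses differed by -2.84 ± 0.63 (edgeR adjusted p = 0.0345; -2.69 and adjusted p = 0.0441 without library C). This call was lost when any of 9 of the 12 libraries was left out, with edgeR adjusted p up to 0.102, and without the low-count filter (adjusted p = 0.0559). Under anti-CD40 alone Cxcl1 was lower in sph/sph than in WT, with a log2 difference of -1.59 ± 0.42 (edgeR adjusted p = 0.0265). That call was lost when WT anti-CD40 B, its fellow library C or the sph/sph library A was left out, where the edgeR adjusted p was 0.0909, 0.0549 and 0.0797, and when only the anti-CD40 groups were fitted (adjusted p = 0.1). Under saline the difference was 1.25 ± 0.47 (edgeR adjusted p = 0.27).

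Cxcl2 (ENSMUSG00000058427; chromosome 5, 90903871 to 90905938, plus strand) lies 10755 bases from Cxcl1. It was at 6.08, 33.9 and 0.49 CPM in sph/sph anti-CD40 and at 75.6, 43.9 and 19.4 CPM in WT anti-CD40. It was at 3.12, 2.55 and 0.93 CPM in sph/sph saline and at 5.46, 6.10 and 4.38 CPM in WT saline. Within sph/sph anti-CD40 the libraries ranged widely, library B inside the WT anti-CD40 range and library C below all other libraries.

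The Cxcl2 response was 3.12 ± 1.09 in WT (edgeR adjusted p = 0.0437). It was 2.61 ± 1.10 in sph/sph (edgeR adjusted p = 0.209), and 3.19 ± 0.76 without library C (adjusted p = 0.0215). Between genotypes the Cxcl2 responses differed by -0.51 ± 1.47 (edgeR adjusted p = 0.895), or by 0.10 ± 0.97 without library C (adjusted p = 0.969). The WT call was lost in 8 of the 12 fits that left out a library, with edgeR adjusted p up to 0.121, and with a term for the Y-linked reads (adjusted p = 0.0577). The difference between genotypes was -1.78 ± 1.03 under anti-CD40 (edgeR adjusted p = 0.273), or -1.19 ± 0.74 without library C (adjusted p = 0.279), and -1.27 ± 1.07 under saline (adjusted p = 0.693).

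The CXCR3 ligands Cxcl9, Cxcl10 and Cxcl11 rose steeply with anti-CD40 in WT and had lower values in sph/sph than in WT under anti-CD40 in all libraries, a difference called for Cxcl11 in the fit of all 12. The genes are neighbours on the minus strand of chromosome 5: Cxcl9 (ENSMUSG00000029417) at 92321347 to 92328079, Cxcl10 (ENSMUSG00000034855) at 92346638 to 92348889 and Cxcl11 (ENSMUSG00000060183) at 92359544 to 92365485, with gaps of 18558 and 10654 bases. Cxcl11 is annotated as a polymorphic pseudogene, so that its transcript level says nothing of a protein. Cxcl10 shares 133 exonic bases with Art3 on the other strand, which reached 33.6 CPM at most, and Cxcl11 shares 1582 with the pseudogene Gm2673, which is not analysed here.

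Cxcl9 was at 787, 683 and 12.8 CPM in sph/sph anti-CD40 and at 3971, 3810 and 6308 CPM in WT anti-CD40. In sph/sph saline it was at 49.7, 11.1 and 15.5 CPM, and in WT saline at 32.4, 36.4 and 20.2 CPM. Libraries A and B of sph/sph anti-CD40 thus lay between the saline and the WT anti-CD40 libraries, and library C lay among the saline libraries. The saline groups overlapped.

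The Cxcl9 response was 7.31 ± 1.32 in WT (edgeR adjusted p = 0.00215). In sph/sph it was 4.28 ± 1.15 with library C (edgeR adjusted p = 0.0949) and 4.85 ± 0.61 without it (adjusted p = 0.0018). Under anti-CD40 the difference between sph/sph and WT was -3.25 ± 1.09 with library C (edgeR adjusted p = 0.0667) and -2.67 ± 0.63 without it (adjusted p = 0.0158). The difference between the responses was not called in either fit, at -3.03 ± 1.45 (edgeR adjusted p = 0.3) and -2.44 ± 0.79 without library C (adjusted p = 0.095). Under saline the genotypes differed by -0.22 ± 1.01 (edgeR adjusted p = 0.957).

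Cxcl10 was at 431, 284 and 5.23 CPM in sph/sph anti-CD40 and at 823, 720 and 1484 CPM in WT anti-CD40. It was at 15.2, 6.94 and 7.33 CPM in sph/sph saline and at 13.7, 12.5 and 8.42 CPM in WT saline. The 3 WT anti-CD40 libraries lay above all others, and library C of sph/sph anti-CD40 lay below all others.

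The Cxcl10 response was 6.45 ± 1.23 in WT (edgeR adjusted p = 0.00285). In sph/sph it was 4.62 ± 1.13 (edgeR adjusted p = 0.08), or 5.18 ± 0.47 without library C (adjusted p = 0.000518). Under anti-CD40 the genotypes differed by -2.07 ± 1.01 (edgeR adjusted p = 0.19), or by -1.50 ± 0.44 without library C (adjusted p = 0.0364). Its responses differed by -1.83 ± 1.40 (edgeR adjusted p = 0.534), or by -1.24 ± 0.58 without library C (adjusted p = 0.232), and under saline the genotypes differed by -0.24 ± 1.00 (adjusted p = 0.952).

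Cxcl11 was at 25.1, 18.9 and 0.38 CPM in sph/sph anti-CD40 and at 289, 262 and 426 CPM in WT anti-CD40. It stayed near the detection limit under saline, at 0.60, 0.36 and 0.23 CPM in sph/sph and 0.58, 1.10 and 0.44 CPM in WT, which is 4 to 20 counts a library. All sph/sph anti-CD40 libraries were below all WT anti-CD40 libraries, and library C was at the saline level.

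The Cxcl11 response in WT, 8.83 ± 1.23, was the largest of the 9 (edgeR adjusted p = 0.000522). In sph/sph it was 5.21 ± 1.15 (edgeR adjusted p = 0.0646), or 5.78 ± 0.41 without library C (adjusted p = 0.000429). Under anti-CD40 Cxcl11 was lower in sph/sph, with a log2 difference of -4.47 ± 0.98 (edgeR adjusted p = 0.0119), or -3.89 ± 0.37 without library C (adjusted p = 0.000216). This call held in every fit that left out 1 library and was lost when only the anti-CD40 groups were fitted (adjusted p = 0.0964). The responses differed by -3.61 ± 1.64 (edgeR adjusted p = 0.27), or by -3.02 ± 0.61 without library C (adjusted p = 0.0214). Under saline the genotypes differed by -0.85 ± 1.29 (edgeR adjusted p = 0.837).

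The balance of Cxcl9 to Cxcl10 was compared by the ratio of their counts. The permutation test used for it cannot reach a p under 0.05 with 3 libraries against 3, so it could call no difference. The ratio of Cxcl9 to Cxcl10 counts was 1.82, 2.40 and 2.44 in sph/sph anti-CD40, 4.83, 5.29 and 4.25 in WT anti-CD40, 3.28, 1.60 and 2.11 in sph/sph saline and 2.36, 2.90 and 2.39 in WT saline. It was thus higher in each of the 3 WT anti-CD40 libraries than in any other library. Its mean was 2.22 ± 0.346 in sph/sph anti-CD40 and 4.79 ± 0.523 in WT anti-CD40 (SD, n = 3 each; exact two-sided permutation test, p = 0.1, 0.2 after Benjamini-Hochberg adjustment over 4 comparisons, where 0.1 is the smallest p that 3 against 3 allow). The same p values came from WT anti-CD40 against WT saline, whose mean was 2.55 ± 0.306. For sph/sph anti-CD40 against sph/sph saline (2.33 ± 0.862) the exact permutation p was 0.9, and for sph/sph saline against WT saline 0.8.

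T and NK cell transcripts were highest in the WT anti-CD40 group, as the CXCR3 ligands were, and within groups the order of the libraries differed. All 7 T and NK cell markers were called higher with anti-CD40 in WT (19.4% of all genes). Under anti-CD40, 4 of 7 were called lower in sph/sph than in WT (6.19% of all genes). Without library C 7 of 7 were called lower, as were 1515 of 14066 genes. The 7 markers summed to 41.1, 1.92 and 53.7 CPM in sph/sph anti-CD40 and to 165, 1317 and 493 CPM in WT anti-CD40. Library C of sph/sph anti-CD40 thus had the highest sum of its group and the lowest Cxcl9, and library B had a sum within the saline range and Cxcl9 at 683 CPM. Under saline they summed to 2.27 to 9.61 CPM in sph/sph and 1.48 to 1.99 CPM in WT, and none was at 0 in all libraries of a group. Ifng, the interferon that induces these chemokines, was at 1.24, 0.15 and 0.43 CPM in sph/sph anti-CD40 and at 16.1, 37.0 and 16.5 CPM in WT anti-CD40. Under saline it did not exceed 0.24 CPM. The part of these transcripts in the chemokine differences was not tested.

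Cxcl13 (ENSMUSG00000023078; chromosome 5, 95956951 to 95961068, plus strand), the B cell attractant, responded with opposite signs in sph/sph and WT, values that with all 12 libraries were called within neither genotype by edgeR or limma-voom and within both by DESeq2. It was at 278, 308 and 1.56 CPM in sph/sph anti-CD40 and at 31.1, 1.78 and 6.79 CPM in WT anti-CD40. It was at 3.72, 3.44 and 3.55 CPM in sph/sph saline and at 155, 56.2 and 177 CPM in WT saline. The high libraries were thus the 3 of WT saline and A and B of sph/sph anti-CD40, and the low ones those of the other 2 groups and library C.

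In sph/sph the Cxcl13 response was 5.77 ± 1.57 (edgeR adjusted p = 0.0975), or 6.35 ± 1.00 without library C (adjusted p = 0.00439). In WT it was -3.30 ± 1.39 (edgeR adjusted p = 0.0824), or -3.34 ± 0.84 without sph/sph anti-CD40 C (adjusted p = 0.00975). The responses differed by 9.07 ± 2.09 (edgeR adjusted p = 0.039), or by 9.69 ± 1.30 without library C (adjusted p = 0.00342). This call was lost when any of 10 of the 12 libraries was left out (edgeR adjusted p up to 0.115), without the low-count filter (adjusted p = 0.0543) and with limma-voom (adjusted p = 0.307). It was kept without WT anti-CD40 A and without sph/sph anti-CD40 C.

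Under saline Cxcl13 differed between sph/sph and WT by -5.18 ± 1.53 (edgeR adjusted p = 0.139), or by -5.19 ± 0.93 without sph/sph anti-CD40 C (adjusted p = 0.0182), with no overlap of the groups. Under anti-CD40 the difference was 3.90 ± 1.42 (edgeR adjusted p = 0.0882), or 4.49 ± 0.91 without library C (adjusted p = 0.00914). Library C, at 1.56 CPM for Cxcl13, was the library with the B cell markers at 1283 CPM. Across the 4 groups those 4 markers summed to 25.8 to 1283 CPM in sph/sph anti-CD40, 33.6 to 242 CPM in WT anti-CD40, 8.78 to 47.0 CPM in sph/sph saline and 8.64 to 11.3 CPM in WT saline. All 7 Kupffer cell markers fell with anti-CD40 in WT (19.7% of all genes). Between the saline groups edgeR called 0 of these 7 (2.04% of all genes), and 3 of 7 did not overlap (31% of all genes). Of the 7, 1 had an unadjusted p under 0.05, Cd163, whose log2 difference was -1.99. The part of the B cell and Kupffer cell transcripts in the Cxcl13 values was not tested.

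Cxcl14 (ENSMUSG00000021508; chromosome 13, 56288643 to 56296551, minus strand) was lower in sph/sph than in WT under both treatments and fell with anti-CD40 in WT. It was at 0.69, 0.44 and 0.65 CPM in sph/sph anti-CD40 and at 4.85, 3.09 and 1.03 CPM in WT anti-CD40. It was at 1.99, 1.01 and 0.47 CPM in sph/sph saline and at 23.1, 19.7 and 33.7 CPM in WT saline. The WT saline libraries stood above all others. Library C of sph/sph anti-CD40 lay between A and B here.

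Under saline the genotypes differed by -4.46 ± 0.64 (edgeR adjusted p = 0.00681), a call that held in each of the 12 fits with 1 library left out, with edgeR adjusted p up to 0.04. With anti-CD40 Cxcl14 fell by 3.09 ± 0.59 (edgeR adjusted p = 0.00281). In sph/sph the response was -0.94 ± 0.63 (edgeR adjusted p = 0.411), or -1.01 ± 0.77 without library C (adjusted p = 0.375). Under anti-CD40 Cxcl14 was lower in sph/sph, with a log2 difference of -2.31 ± 0.62 (edgeR adjusted p = 0.029), or -2.36 ± 0.76 without library C (adjusted p = 0.0482). This last call was lost without A or B of either anti-CD40 group (WT A, WT B, sph/sph A and sph/sph B left out in this order gave edgeR adjusted p = 0.074, 0.0668, 0.0669 and 0.0895), with limma-voom (adjusted p = 0.152) and when only the anti-CD40 groups were fitted (edgeR adjusted p = 0.0999). Its responses differed by 2.16 ± 0.85 (edgeR adjusted p = 0.199).

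Cxcl12 (ENSMUSG00000061353; chromosome 6, 117168535 to 117181367, plus strand), the CXCR4 ligand of stromal cells, was called by edgeR and limma-voom in no comparison of all 12 libraries and varied widely within groups. It was at 5.59, 16.5 and 57.0 CPM in sph/sph anti-CD40 and at 33.4, 33.2 and 20.9 CPM in WT anti-CD40. It was at 117, 78.5 and 14.3 CPM in sph/sph saline and at 42.0, 269 and 139 CPM in WT saline. Its response was -1.40 ± 0.92 in sph/sph (edgeR adjusted p = 0.402), or -2.66 ± 0.97 without library C (adjusted p = 0.0885). In WT the Cxcl12 response was -2.37 ± 0.95 (edgeR adjusted p = 0.0705, or 0.0352 without sph/sph anti-CD40 C), which DESeq2 called (adjusted p = 0.0155). The Cxcl12 responses differed by 0.96 ± 1.28 (edgeR adjusted p = 0.746), or by -0.28 ± 1.17 without library C (adjusted p = 0.923). The difference between genotypes was -0.14 ± 0.91 under anti-CD40 (edgeR adjusted p = 0.937), -1.38 ± 0.92 without library C (adjusted p = 0.309), and -1.10 ± 0.91 under saline (adjusted p = 0.683).

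Transcripts of stellate cells and fibroblasts, which make CXCL12 in liver, varied in the same libraries. The 7 markers summed to 57.0 to 270 CPM in sph/sph anti-CD40, 97.9 to 146 CPM in WT anti-CD40, 82.3 to 620 CPM in sph/sph saline and 167 to 989 CPM in WT saline, and none was at 0 in all libraries of a group. Over the 12 libraries, log2 Cxcl12 and log2 of the marker sum had Pearson's r = 0.98 and Spearman's rho = 0.98, and r = 0.97 without the 2 libraries farthest from the median (WT saline B and sph/sph saline A). Both values come from the same libraries and the same depth, so this is a description. Dcn was the largest member of the sum in every library, and the members differed in their responses. With anti-CD40 in WT, edgeR called 3 of the 7 lower (19.7% of all genes) and 4 not. The log2 folds were -4.55 for Lrat, -3.52 for Reln and -5.54 for Colec11, and -1.68 for Dcn, which was not called. Cxcl12 CPM were 9.81% to 21.1% of the marker sum in sph/sph anti-CD40, 21.3% to 23.2% in WT anti-CD40, 17.4% to 19.9% in sph/sph saline and 24.5% to 27.2% in WT saline. Within each treatment the sph/sph percentages were below those of WT in every library.

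**Figure D4:**
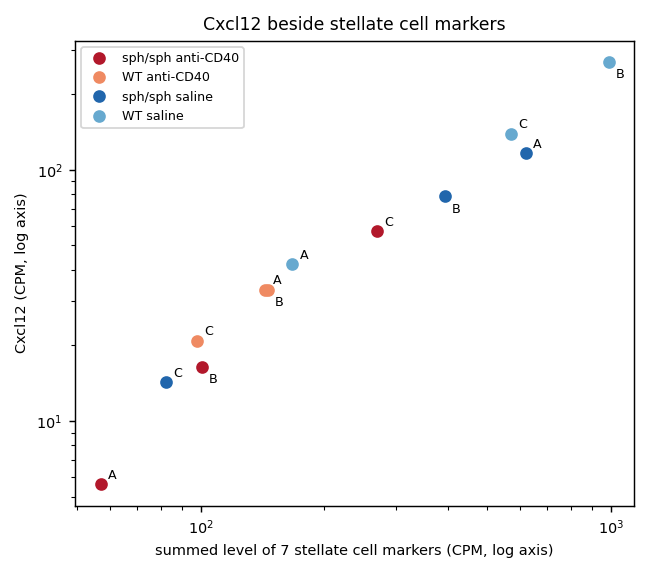
Cxcl12 CPM (vertical log axis) against the summed CPM of 7 stellate cell and fibroblast markers (horizontal log axis), 1 point per library, coloured by group. The 12 points lie along a line (r = 0.98), from sph/sph anti-CD40 A at 57.0 and 5.59 CPM to WT saline B at 989 and 269 CPM.

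Cxcl16 (ENSMUSG00000018920; chromosome 11, 70453983 to 70459984, minus strand), the CXCR6 ligand, was at 299, 362 and 96.2 CPM in sph/sph anti-CD40 and at 991, 361 and 525 CPM in WT anti-CD40. It was at 120, 102 and 113 CPM in sph/sph saline and at 293, 274 and 280 CPM in WT saline. The saline groups were tight and apart from each other, and library B of sph/sph anti-CD40 reached the lowest WT anti-CD40 library. Cxcl16 shares 552 exonic bases with Zmynd15 on the other strand, which reached 80.8 CPM at most.

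No comparison of all 12 libraries called Cxcl16 by edgeR or limma-voom, while DESeq2 called its WT response (adjusted p = 0.0333) and its genotype difference under anti-CD40 (adjusted p = 0.0195). Under saline the genotypes differed by -1.34 ± 0.46 (edgeR adjusted p = 0.208), or by -1.35 ± 0.31 without sph/sph anti-CD40 C (adjusted p = 0.0435). The response was 1.18 ± 0.46 in sph/sph (edgeR adjusted p = 0.183), or 1.56 ± 0.34 without library C (adjusted p = 0.0144). In WT it was 1.15 ± 0.46 (edgeR adjusted p = 0.0689), or 1.12 ± 0.31 without that library (adjusted p = 0.0144). Its responses differed by 0.03 ± 0.64 (edgeR adjusted p = 0.987), or by 0.44 ± 0.45 without library C (adjusted p = 0.621). Under anti-CD40 the genotypes differed by -1.31 ± 0.46 (edgeR adjusted p = 0.0757), or by -0.91 ± 0.35 without library C (adjusted p = 0.0864).

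Among 6 other CXC ligands, Cxcl3, a CXCR2 ligand next to these in function, had 12 counts over the 3 sph/sph anti-CD40 libraries and 28 over the 3 WT anti-CD40 libraries, against 0 in both saline groups. By library these were 3, 8 and 1 counts in sph/sph and 16, 9 and 3 counts in WT. With a floor of 3 counts over a group of 0, the pooled ratio to saline was 4.22 in sph/sph and 8.89 in WT. That floor covers counting error of the 0 counts only. Counting error of the 12 and 28 counts is left out, so these ratios are not lower bounds. Cxcl5 had at most 5 counts in a library, and Cxcl15 and Cxcl17 had 0 counts in all 12. Pf4 and Ppbp, platelet chemokines, were the only tested genes of this list, and edgeR called 0 of these 2 in any comparison of all 12 libraries. Ppbp had an unadjusted p under 0.05 for anti-CD40 in WT and between genotypes under saline, and was called higher in both without sph/sph anti-CD40 C. Both were highest in library C of sph/sph anti-CD40, Pf4 at 57.8 CPM and Ppbp at 57.0 CPM.

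Most of the tested receptor genes rose with anti-CD40 in WT. Of 8 CXC receptor genes 7 were tested, and 6 rose with anti-CD40 in WT, against 19.4% of all genes: Cxcr2 by 4.80, Cxcr4 by 1.71, Cxcr5 by 4.32, Cxcr6 by 5.72, Ackr1 by 2.40 and Ackr3 by 3.44 on the log2 scale (edgeR adjusted p from 0.00155 to 0.0389). Cxcr3 was not called. With 1 library left out in turn, the Cxcr5 call in WT was lost in 5 of 12 fits (edgeR adjusted p up to 0.116) and those of Ackr1 and Ackr3 in 3 each (up to 0.0671 and 0.0771), and limma-voom did not call Cxcr5. In sph/sph 1 of 7 rose, Cxcr4, by 1.59 (edgeR adjusted p = 0.0462; 0.78% of all genes called), and this call was lost in 10 of the 12 fits with 1 library left out. Without library C Cxcr4 rose by 1.35 in sph/sph and Cxcr3 was lower, with a log2 fold of -2.41 (edgeR adjusted p = 0.0147 and 0.0409). Under anti-CD40 3 of 7 (6.19% of all genes) were lower in sph/sph than in WT, with log2 differences of -3.94 for Cxcr2, -3.87 for Cxcr6 and -3.10 for Ackr1 (edgeR adjusted p = 0.0147, 0.0263 and 0.0138). Without library C 5 of 7 were lower, Cxcr3 and Ackr3 as well, where 1515 of 14066 genes were called lower. The Cxcr6 call was lost in 3 of 12 fits that left out 1 library (edgeR adjusted p up to 0.077) and when only the anti-CD40 groups were fitted, and the Cxcr2 call without WT anti-CD40 B (adjusted p = 0.0555). In the 8 libraries with Y-linked reads these genotype calls of Cxcr6 and Ackr1 were lost. That fit also lost the WT calls of Cxcr5, Cxcr6, Ackr1 and Ackr3 (edgeR adjusted p = 0.0928, 0.0636, 0.0983 and 0.0973). The sph/sph call of Cxcr4 was lost there too (adjusted p = 0.404).

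Cxcr6, the receptor of CXCL16 on T and NK cells, was at 1.59, 0.07 and 3.94 CPM in sph/sph anti-CD40 and at 23.3, 37.9 and 22.2 CPM in WT anti-CD40. Cxcr2, the neutrophil receptor of CXCL1 and CXCL2, was at 0.90, 0.89 and 1.08 CPM in sph/sph anti-CD40 and at 10.9, 23.7 and 9.79 CPM in WT anti-CD40. Both were apart between the genotypes. Cxcr5, the receptor of CXCL13, was at 6.15, 2.66 and 113 CPM in sph/sph anti-CD40, highest in the library with the most B cell transcripts, and at 5.25, 15.8 and 20.8 CPM in WT anti-CD40. Neutrophil markers (6 genes, none at 0 in all libraries of a group) summed to 126 to 322 CPM in sph/sph anti-CD40, 185 to 582 CPM in WT anti-CD40, 130 to 196 CPM in sph/sph saline and 123 to 160 CPM in WT saline. The largest member under saline, Csf3r, had means of 131 CPM in WT saline and 103 CPM in WT anti-CD40. With anti-CD40, edgeR called 4 of the 6 higher in WT (19.4% of all genes). In sph/sph it called 0 of the 6 (0.78% of all genes).

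Of 14 genes of the interferon-gamma and NF-kappaB routes and of messenger stability, all tested, 8 rose and 1 fell with anti-CD40 in WT (19.4% and 19.7% of all genes). None was called in sph/sph by edgeR (0.78% of all genes), where 7 had an unadjusted p under 0.05, as had 2901 of the 13844 genes tested. Without library C 7 of the 14 rose and 1 fell in sph/sph, with 16.9% of genes called, 9.83% as higher. In WT, among others, Ifng rose by 8.46, Tnf by 6.46, Irf1, an interferon-induced factor, by 1.87, Jak2, the kinase of the interferon-gamma receptor, by 1.54, the NF-kappaB inhibitor Nfkbia by 1.14 and the subunits Nfkb1 and Rela by 0.82 and 0.55. The receptor chain Ifngr1 fell by 2.36. The call of Nfkbia was lost in 3 of the 12 fits that left out a library (edgeR adjusted p up to 0.0768) and that of Rela in 1 (0.0545). In the 8 libraries with Y-linked reads the WT calls of Irf1, Nfkbia and Rela were lost (edgeR adjusted p = 0.0666, 0.154 and 0.148).

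Under anti-CD40 3 of these 14 were lower in sph/sph than in WT (6.19% of all genes), with log2 differences of -5.24 ± 0.86 for Ifng, -1.07 ± 0.16 for Jak2 and -0.54 ± 0.14 for Nfkb1, and Ifngr1 was higher by 1.06 ± 0.19 (edgeR adjusted p = 0.00277, 0.0015, 0.0246 and 0.0048). The Nfkb1 call was lost in 3 of 12 fits that left out 1 library (edgeR adjusted p up to 0.0775). When only the anti-CD40 groups were fitted, and in the 8 libraries with Y-linked reads, the calls of Nfkb1 and Ifngr1 and that of Adam10, given next, were lost. Of 3 protease genes that shed or trim chemokines, Adam10, the sheddase of CXCL16, fell by 1.45 ± 0.17 with anti-CD40 in WT (edgeR adjusted p = 0.000181) and was higher in sph/sph than in WT under anti-CD40 by 0.80 ± 0.17 (adjusted p = 0.00964). It was at 215, 304 and 262 CPM in sph/sph anti-CD40 and at 136, 150.1 and 163 CPM in WT anti-CD40, with no overlap. Adam17 and Dpp4 were called in no comparison of all 12 libraries.

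The genes with the profile most like each chemokine were read from Pearson's r of log2 CPM over the 12 libraries, as a description of libraries that share groups and depth. Cxcl9 was matched by Gm4841 (r = 0.99), Cxcl10 (0.99) and Cxcl11 (0.99), and Cxcl9 was in turn among the 3 nearest profiles of Cxcl10 and of Cxcl11. Cxcl10 was matched by Mapre1 (r = 0.99), Cxcl9 and Sar1a, and Cxcl11 by Cxcl9, Gm4841 and Pgs1. Cxcl1 was matched by Dusp5 (r = 0.97), Mboat1 and Tnfrsf9, Cxcl2 by Tmem202 (r = 0.95), Erap1 and Zdhhc5, and Cxcl16 by Trps1 (r = 0.98), Uap1 and Il1rn. Cxcl12 was matched by Lhfp (r = 0.98), Rbms3 and Lamb1, Cxcl14 by Pdgfrl (r = 0.94) and Prss30, and Cxcl13 by Dthd1 (r = 0.91), Dck and Sult4a1. Among the 9 themselves Cxcl13 had r = 0.10 with Cxcl9, 0.38 with Cxcl14 and 0.47 with Cxcl16, its highest.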

How the data were processed

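RNA sequencing measured gene expression in 12 libraries of F4/80-bead-enriched liver cells. The deposited values are read counts per gene, raw and not normalized, with 1 column per library. The submitters' processing notes name build GRCm38.p5 and the tools featureCounts, SAMtools 1.9 and STAR 2.7.0e. What each tool did, and with which annotation, is not given in the sources used here. The kit is stranded per the labels' protocols, but with the strand setting of the counting not given, genes that overlap on the other strand are uncertain. Columns name genotype and treatment and carry no replicate number, and letters A to C follow column order.

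Counts were filtered with filterByExpr, scaled by TMM and fitted with edgeR 4.0.16 in R 4.3.3 (robust quasi-likelihood F test, a mean per group, all 12 libraries, 8 residual degrees of freedom). A call means a Benjamini-Hochberg adjusted p under 0.05 over the 13844 genes tested, or 14066 without sph/sph anti-CD40 C. Fold changes are log2 with approximate SE (log2 fold over the square root of F). CPM use TMM-scaled library sizes, and RPKM use exon lengths of GENCODE vM21. The scripts were tested on simulated counts. The alternatives were size factors of DESeq2 1.42.0, no filter, DESeq2, limma-voom (limma 3.58.1), only the groups compared, a term for Y-linked reads and each library left out. A fit of the 8 libraries with Y-linked reads was added after seeing the data. A floor of 3 counts stands for 0 counts over a group, and floors cover counting error of those 0 counts only.

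The 9 genes, the other lists and the markers were chosen with earlier results of these data known. All 9 were named, with any called gene of the lists and the 3 most similar profiles per chemokine (prior count 2). Some of the genes this rule selects are not reported here. At 14991250 to 18984067 counts per library, 1 count is a CPM of well under 1.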

Additional observations from a re-analysis of the deposited data

Results flagged for a closer look

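The responses to anti-CD40 differed between sph/sph and WT for 2 of the 9 chemokine genes and for 3 genes of the pathway lists, by edgeR's test of the difference itself (log2, response of sph/sph minus response of WT). The difference was 9.07 for Cxcl13 (edgeR adjusted p = 0.039) and -2.84 for Cxcl1 (adjusted p = 0.0345). It was 1.55 for Ifngr1 (edgeR adjusted p = 0.012), -0.98 for Jak2 (adjusted p = 0.0343) and 1.14 for Adam10 (adjusted p = 0.0239). With 1 library left out in turn, the Ifngr1 call held in all 12 fits (adjusted p up to 0.0466), while the calls were lost in 10 fits for Cxcl13, in 9 for Cxcl1, in 9 for Jak2 and in 7 for Adam10. In the 8 libraries with Y-linked reads none of the 5 differences was called. Without sph/sph anti-CD40 C all 5 were called.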

How the results depend on the processing

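No paired analysis was possible because the columns carry no replicate number. Under each treatment the genotypes have a single identification number in common, that of their A libraries, with no stated meaning. Anti-CD40 and saline groups have none in common. Over 45 values (9 genes, 5 comparisons) and up to 19 settings, 742 of 843 repeats kept direction and side of the threshold, 50 lost a call, 36 gained one and 15 changed sign. The WT responses of Cxcl1, Cxcl9, Cxcl10, Cxcl11 and Cxcl14 were called in every setting. No value that changed sign was called. Cxcl9 under saline ran from -1.16 to 0.14 with 1 library left out, Cxcl12 under anti-CD40 from -1.38 to 0.34 (0.45 in the 8 libraries with Y-linked reads). The difference of responses ran from -2.56 to 0.10 for Cxcl2 (0.71 in those 8), from -0.28 to 1.56 for Cxcl12 and from -0.32 to 0.53 for Cxcl16 (-0.034 with limma-voom). Genes called moved as follows; the cause was not tested. For sph/sph against WT under saline (282), DESeq2 called 831, the fit of those groups alone 891, the 8 libraries 13 and fits without 1 library 73 to 539. For anti-CD40 in WT (5420) the 8 libraries gave 2845. For anti-CD40 in sph/sph (108) DESeq2 gave 1380, those groups alone 0 (2056 at an unadjusted p under 0.05), the 8 libraries 0 (1237) and fits without 1 library 0 to 2372, the highest without sph/sph anti-CD40 C. For sph/sph against WT under anti-CD40 (2455) those groups alone gave 735, the 8 libraries 1174 and fits without 1 library 1355 to 3408. For the difference of responses (595) DESeq2 gave 1393, the 8 libraries 153 and fits without 1 library 259 to 944. With only the anti-CD40 groups fitted, all 3 genotype calls of the 9 genes there were lost. In the 8 libraries the saline call of Cxcl14 (edgeR adjusted p = 0.0856), all 3 genotype calls under anti-CD40, the Cxcl2 call in WT and both differences of responses were lost. With 3 libraries a group and 1 that stands apart, the sph/sph response is the least certain, and Cxcl1 rests on 2 to 68 counts a library.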
